A study of Oryza sativa with 4 samples.

Results

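The transcripts described here gave bright signals that varied little across the arrays of a rice leaf experiment. A probe set, the group of short probes that reads 1 transcript on an Affymetrix array, was taken when the series' probe-to-gene table pairs it with exactly 1 gene, when it read 8000 or more on all 4 arrays, and when its highest array read at most 1.2 times its lowest. The rule took 268 probe sets assigned to 238 genes, out of 22436 single-gene probe sets other than array controls and 57381 probe sets in all. They are called bright stable probe sets below. The rule used the signals of all 4 arrays, and so also the comparison of the groups, and for that reason their levels and differences are described with no test. The label "stable" holds for the deposited scale: under a scaling to the hybridisation spikes, labelled control RNAs added to each hybridisation, 17 of the 268 stayed within the rule and the median ratio of highest to lowest array of all 268 was 1.35.

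The leaves came from rice (Oryza sativa, cultivar Nipponbare) 75 days after germination, from primary transformants (T0 lines, regenerated directly from transformed callus). The 2 OsRR6 overexpressor arrays are from lines carrying the vector pActnos/Hmz-OsRR6, and the 2 control arrays from lines carrying the empty vector pActnos/Hmz. All lines went through 6 weeks on regeneration plates and 7 days on hygromycin at 50 µg/mL, and then grew in hydroponic culture until heading, in a day of 12 h light (30 °C) and a night of 12 h (25 °C). Nothing in the labels tells whether both replicates of a group are separate plants or lines. The p-values set the difference between the groups against the spread between replicate arrays, pooled in part over probe sets. That spread may be technical, so the p-values hold only for these samples. With 2 arrays a group an exact two-sided permutation test cannot go below 0.333. Each array was hybridised with labelled RNA made from about 10 µg of total RNA, and each has a 2% trimmed mean signal of 500.1.

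OsRR6 belongs to the type-A response regulators, proteins that cytokinin induces and that act as negative regulators of cytokinin signalling. Its probe set (RR6, LOC4337372) read 2264 and 1989 on the arrays labelled overexpressor, against 2559 and 2733 on the control arrays. The arrays labelled overexpressor were therefore the lower ones, by -0.32 ± 0.10 on the log2 scale (SE, limma, adjusted p = 0.0597), which did not pass the test. Whether this probe set can read the transgene's transcript was not tested, so every direction below is that of arrays labelled overexpressor.

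Most leaf markers were bright on all arrays. Of 10 mesophyll marker genes 7 read 8000 or more throughout, and 4 of the 10 (CAB2R, OEE3, RCABP69 and PSAH) are genes of bright stable probe sets. The summed signal of the 10 was 138894 and 130349 on the overexpressor arrays, against 158633 and 168044 on the control arrays, so the groups did not overlap. The groups also did not overlap for 68.1% of all probe sets tested. A sum follows its brightest probe sets, and the 10 genes did not move alike. Rubisco activase read 12074 and 11454 on the overexpressor arrays, against 25009 and 25478 on the control arrays, while PSAH was higher on both overexpressor arrays. The 3 anther tapetum markers RTS, C6 and RAFTIN1 summed to 256.8 and 86.4 on the overexpressor arrays, against 9954 and 10746 on the control arrays, and RTS itself read 10.8 and 3.8 on the overexpressor arrays, against 3702 and 4044 on the control arrays. The 6 seed endosperm markers summed to 512.5 and 539.2 on the overexpressor arrays, against 487.0 and 566.8 on the control arrays. The part of these marker differences in the results below was not tested, and in leaf RNA fewer cells of a type and less RNA per cell cannot be told apart.

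Some of these transcripts are of kinds that plant studies use as internal standards, and 11 of the 238 genes are on a list of such genes given below. Actin and tubulin build the cytoskeleton, ubiquitin marks proteins for breakdown, elongation and initiation factors run protein synthesis, and glyceraldehyde-3-phosphate dehydrogenase is a step of glycolysis. Their transcripts are abundant in most plant cells, and a measurement that divides by one of them assumes that it has the same level in the samples compared. A leaf adds its own abundant transcripts, those of the light-harvesting and electron transport proteins of the chloroplast.

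Brightness alone did not select these probe sets. At 8000 or more on all arrays there were 546 single-gene probe sets, and the 268 within the ratio limit made up 49.1% of them. The share is a full count under the rule, and some genes have several of these probe sets, so no interval is given. It depended on the scaling: the share of bright probe sets within the limit was 22.7% with spike scaling and 54.7% with quantile normalization. The other 278 of the 546, assigned to 249 genes, are called other bright probe sets. The ratio of highest to lowest array had a median of 1.13 in the bright stable probe sets, with a range of 1.02 to 1.2, and a median of 1.3 in the other bright ones, whose highest ratio was 2.71. Of the 268, 79 were within 1.1 and 9 within 5%. The mean signal ran between 8239 and 27832 with a median of 12490, against a median of 12719 for the other bright probe sets. A ratio is computed within a probe set, and the signals of different probe sets are not amounts that can be set against each other.

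**Figure D1:**
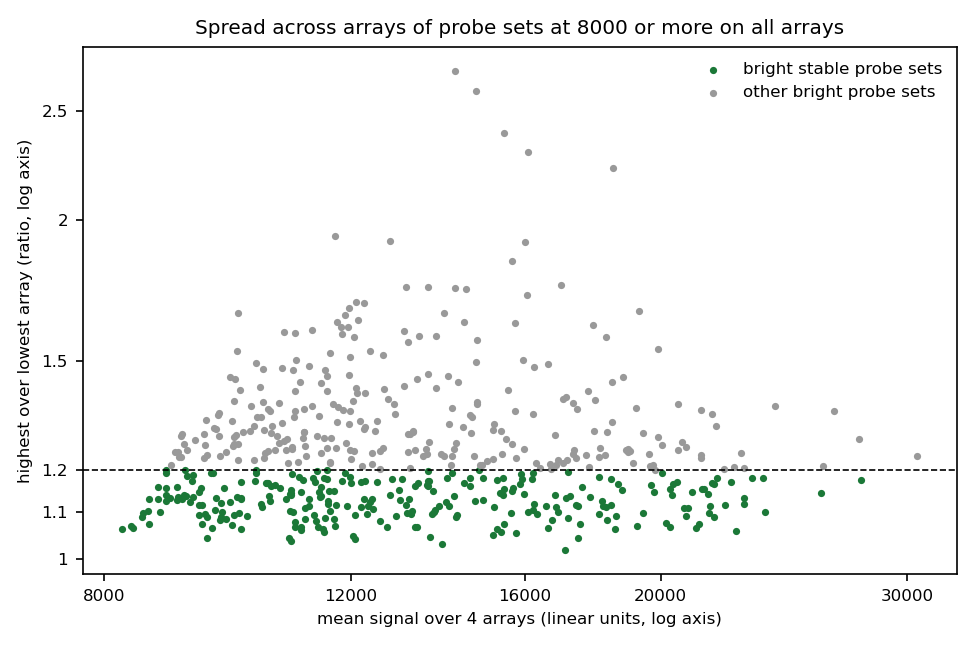
Each point is a single-gene probe set that read 8000 or more on all 4 arrays, with its mean signal on the x axis (linear units, log axis) and the ratio of its highest to its lowest array on the y axis (log axis). The 268 bright stable probe sets lie under the dashed line at 1.2 and the 278 other bright ones above it, up to 2.71, and both span most of the range of signal.

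The share of probe sets within the ratio limit was greater in brighter signal classes. Grouped by their mean signal over the 4 arrays, 18.2% of the 3551 single-gene probe sets between 500 and 1000 were within 1.2, 28.5% of the 2451 between 2000 and 4000, 34.9% of the 392 between 8000 and 12000, and 62.7% of the 51 at 20000 or more. The step between neighbouring classes was not always upward: 26.7% of the 1332 probe sets between 4000 and 8000 were within the limit, and 43.3% of the 90 between 16000 and 20000 against 44.4% of the 171 between 12000 and 16000. The direction of the differences moved with signal too. The median log2 difference of overexpressor minus control was 0.10 in the dimmest of these classes and -0.11 in the brightest. Between the 2 overexpressor arrays, replicate 1 minus replicate 2, the median was -0.04 in the dimmest and 0.12 in the brightest class, and between the 2 control arrays it was 0.01 and -0.09. At 20000 or more the difference between the groups and the differences within them were therefore of like size.

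**Figure D2:**
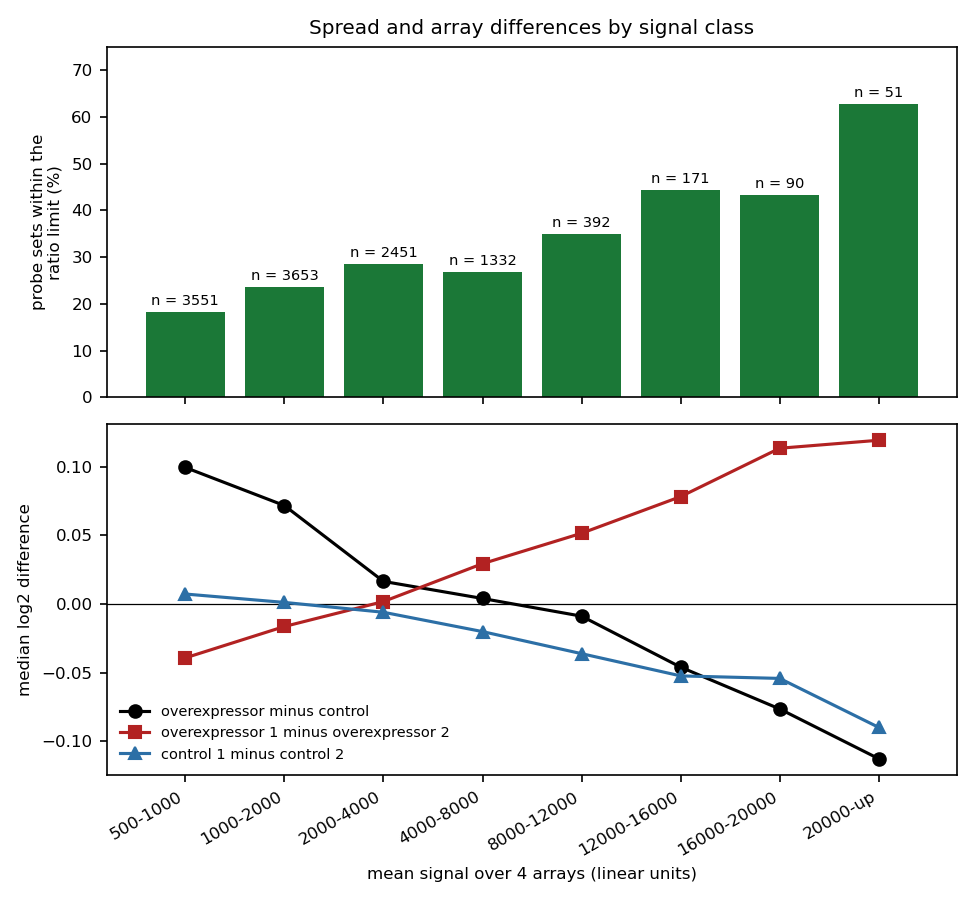
The upper panel shows the percent of single-gene probe sets whose highest array is at most 1.2 times the lowest, by class of mean signal (linear units), with the number of probe sets over each bar. The lower panel shows the median log2 difference of overexpressor minus control, and of replicate 1 minus replicate 2 within each group, in the same classes: between the dimmest and the brightest class the first moves between 0.10 and -0.11 and the overexpressor pair between -0.04 and 0.12.

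Within the 268 the overexpressor pair was the wider one. The ratio of the higher to the lower array had a median of 1.06 for the 2 overexpressor arrays and 1.04 for the 2 control arrays, and it was larger for the overexpressor pair in 165 of the 268. That was not particular to them: in the other bright probe sets the medians were 1.09 for the overexpressor and 1.04 for the control pair, and the median absolute log2 difference within a pair was 0.18 for the overexpressor and 0.10 for the control arrays between 500 and 1000, and 0.12 and 0.09 at 20000 or more. Overexpressor replicate 2 was the lowest array for 135 probe sets and control replicate 1 for 84, while overexpressor replicate 1 was the highest for 102 and control replicate 2 for 103. The median signal over the 268 was 12904 and 12546 on the overexpressor arrays, and 12241 and 12411 on the control arrays.

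The ratio of the group means, overexpressor over control, had a median of 0.991 and ran between 0.854 and 1.19. On the log2 scale the median difference was -0.01, beside 0.08 over all 28629 probe sets tested. The median of the 268 was 0.08 with quantile normalization and with cyclic loess, -0.12 with median centring and 0.30 with spike scaling, beside 0.39 for all tested on that last scale. The direction of a single one of the 268 can therefore depend on the scale, and it is given for the deposited scale only. Both overexpressor arrays were above both control arrays for 71 of the 268 (26.5%), and below both for 63 (23.5%), and the groups overlapped for 134 (50.0%). Over all tested probe sets 39.7% were separated with the overexpressor higher and 28.3% with it lower, or 68.1% in all. Since the rule limits this difference, nothing is read from these counts, nor from the like counts for single gene groups below. The other bright probe sets, which the rule left out for their ratio, had a median log2 difference of -0.21, with 85 separated with the overexpressor higher, 163 with it lower and 30 overlapping.

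The least variable of the 268 was that of LOC4349248, a gene without a symbol in the tables, with 17216 and 16938 on the overexpressor arrays, against 17249 and 16939 on the control arrays. LOC4330177 followed with 13884 and 13834 on the overexpressor arrays, against 13856 and 14259 on the control arrays, a ratio of 1.03. Next came LOC4344705, LOC4329783 and LOC4352868, each with a ratio of 1.04. All 5 of these genes lack a symbol, as do 165 of the 238 genes. The share of genes with a symbol was 30.7% in the bright stable set and 32.1% in the other bright set. At the bright end stood the metallothionein MT2C, whose values are given below, 2 bright stable probe sets of LOC4324479, LOC4328121 and the gene named ARF in the tables. Those of LOC4324479 had ratios of 1.15 and 1.1. Of the genes without a symbol the bright end held LOC4324479, LOC4328121, LOC4329339 and LOC9266083, with ratios between 1.09 and 1.18.

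At the ratio limit the last probe sets inside were those of LOC4336804, LOC4329831 and LOC4337539, at 1.1994, 1.1997 and 1.1999, and the first outside were LOC4345388 at 1.2003, Ran at 1.2017 and RBCS, the small subunit of Rubisco, at 1.2030. RBCS read 21526 and 19818 on the overexpressor arrays, against 23575 and 23840 on the control arrays. At the floor of 8000 the last inside were LOC4335951, whose lowest array read 8026, LOC4344632 with 8066 and LOC4336804 with 8103. The first outside were LOC4337526 with 7997, LOC4342563 with 7928 and LOC4332603 with 7881. The genes on either side of both limits thus differed by small fractions of their signal.

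Of the 73 genes with a symbol, 9 belong to protein synthesis, with 11 probe sets and ratios between 1.06 and 1.19. GOS2, an initiation factor of the SUI1 type whose promoter is used in rice transformation, had a pair of probe sets. One read 23189 and 22094 on the overexpressor arrays, against 22000 and 23287 on the control arrays (ratio 1.06), and the other read 22118 and 21089 on the overexpressor arrays, against 22124 and 23561 on the control arrays (ratio 1.12). EF-1-alpha, the elongation factor that brings aminoacyl-tRNA to the ribosome, also had a pair, and the groups overlapped in one of them. That one read 20697 and 19696 on the overexpressor arrays, against 19776 and 21045 on the control arrays, and the other read 20158 and 19250 on the overexpressor arrays, against 20541 and 20737 on the control arrays. The remaining members of the group all had both overexpressor arrays above both control arrays. EF-1-beta, the exchange factor of EF-1-alpha, read 13149 and 12707 on the overexpressor arrays, against 11702 and 12012 on the control arrays. The RNA helicase eIF-4A-1 read 13904 and 13443 on the overexpressor arrays, against 12768 and 12452 on the control arrays. Among ribosomal proteins, RPL7A-1 had the widest ratio of the group, 1.19, with 11392 and 11829 on the overexpressor arrays, against 9932 and 10404 on the control arrays. RPS21 read 17218 and 16072 on the overexpressor arrays, against 14612 and 15768 on the control arrays, and the 4 arrays of QM1 (ribosomal protein L10), RPS3A and RPL9 lay within ratios of 1.09 to 1.1. In all, 7 of the 11 probe sets were separated with the overexpressor higher, 2 with it lower and 2 overlapped, beside 26.5%, 23.5% and 50.0% of the 268, and 39.7% higher and 28.3% lower over all tested.

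Ubiquitin was represented by 3 genes, each fused in its coding sequence to a ribosomal protein. UBQ1, fused to ribosomal protein L40, read 12906 and 12852 on the overexpressor arrays, against 11589 and 12035 on the control arrays. RPS27AA and UBQ6 are fusions to ribosomal protein S27a. RPS27AA read 13444 and 13764 on the overexpressor arrays, against 12902 and 13440 on the control arrays, the smallest ratio of the 3 at 1.07. UBQ6 read 10632 and 10105 on the overexpressor arrays, against 9743 and 9361 on the control arrays. In all 3 the overexpressor arrays were the higher ones, by ratios of group means between 1.03 and 1.09, the direction of 39.7% of all tested probe sets.

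The cytoskeleton gave 6 genes and 9 probe sets. ACT1, the actin whose promoter drives many rice transgenes, read 11232 and 11838 on the overexpressor arrays, against 11200 and 11651 on the control arrays, a ratio of 1.06. ACT7, a second actin, had a pair of probe sets with ratios of 1.13 and 1.17, and the wider of them read 13445 and 11494 on the overexpressor arrays, against 12263 and 12939 on the control arrays. In all 3 actin probe sets the groups overlapped. Of the tubulins, TID1, an alpha tubulin, had 3 probe sets with ratios between 1.12 and 1.17, and the one with the highest signal read 19051 and 17294 on the overexpressor arrays, against 18095 and 20174 on the control arrays. The other alpha tubulin, TUBA1, read 11311 and 12436 on the overexpressor arrays, against 10932 and 11032 on the control arrays. TUB3 was the only beta tubulin of the 8 measured that met the rule, and it read 11970 and 11768 on the overexpressor arrays, against 11007 and 11280 on the control arrays. TUBA1 and TUB3 were higher on both overexpressor arrays. ADF4, an actin depolymerising factor, read 14145 and 12942 on the overexpressor arrays, against 14185 and 13619 on the control arrays, with overlapping groups.

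**Figure D3:**
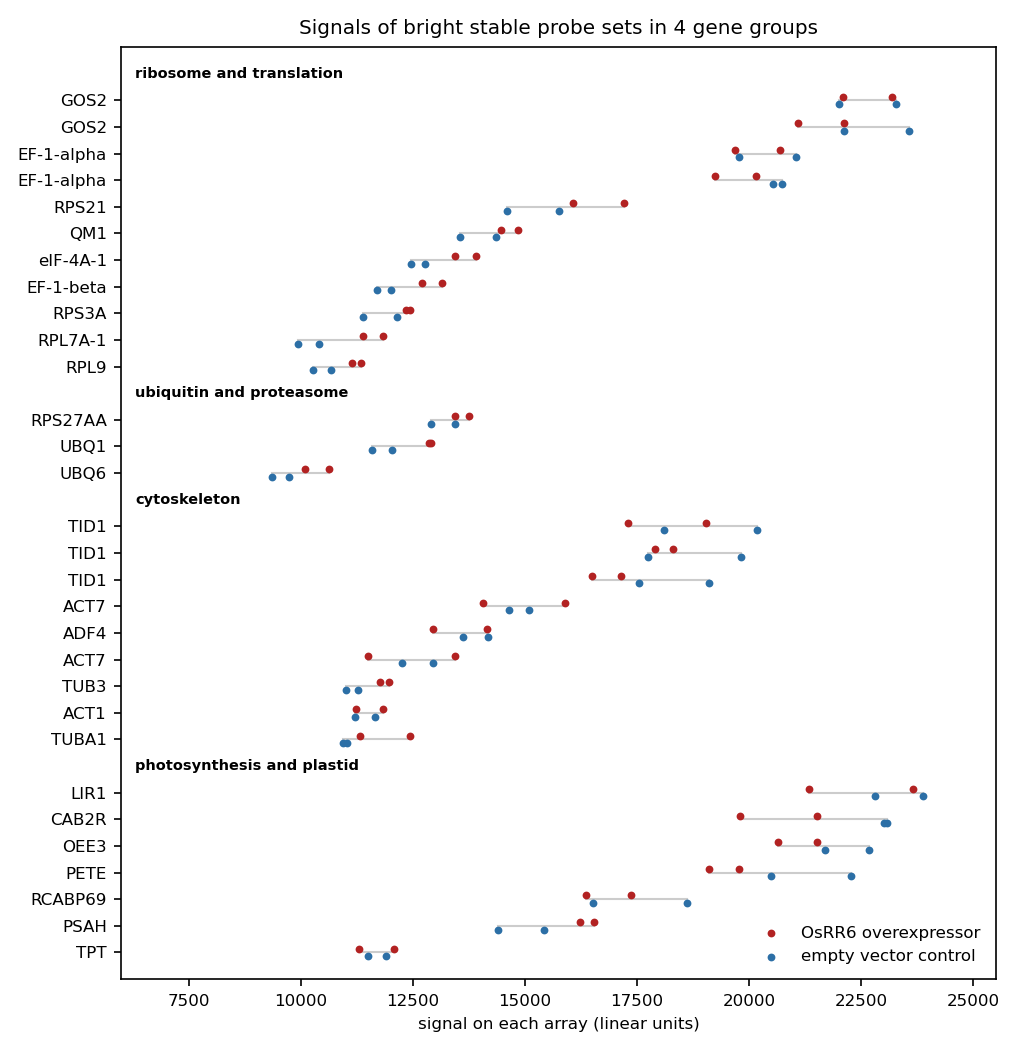
Signals of bright stable probe sets of 4 gene groups (x axis, linear units), 1 row for each probe set, with the 2 OsRR6 overexpressor arrays and the 2 empty vector control arrays as points and a grey line over their range. The overexpressor points lie to the right of the control points for RPL7A-1, EF-1-beta, UBQ1 and UBQ6, to the left of them for CAB2R and PETE, and among them for the actins.

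Photosynthesis gave 7 genes, at ratios between 1.07 and 1.17. LIR1, a light-regulated protein, read 23666 and 21343 on the overexpressor arrays, against 22819 and 23880 on the control arrays. CAB2R and RCABP69 are chlorophyll a/b-binding proteins of the light-harvesting antenna. CAB2R read 21525 and 19790 on the overexpressor arrays, against 23076 and 23007 on the control arrays, while RCABP69 read 17374 and 16362 on the overexpressor arrays, against 16522 and 18612 on the control arrays. OEE3, an extrinsic protein of the oxygen-evolving complex, read 21524 and 20653 on the overexpressor arrays, against 21706 and 22684 on the control arrays. PETE is plastocyanin, the copper protein that carries electrons to photosystem I, and it read 19778 and 19100 on the overexpressor arrays, against 20496 and 22282 on the control arrays. PSAH, a subunit of photosystem I, was the single member of this group that was higher on both overexpressor arrays, with 16553 and 16224 on the overexpressor arrays, against 14398 and 15425 on the control arrays. TPT, which exports triose phosphate from the chloroplast, had the smallest ratio of the group with 11300 and 12081 on the overexpressor arrays, against 11501 and 11898 on the control arrays. CAB2R, OEE3 and PETE were lower on both overexpressor arrays, and the other 3 overlapped.

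Rubisco activase (RA, also named rca) was as bright and lay far outside the limit. Its 4 other bright probe sets had the 4 highest ratios among those with a symbol, between 2.22 and 2.71, and the one at 2.71 read 8375 and 8136 on the overexpressor arrays, against 18470 and 22077 on the control arrays. CAT-A, a catalase, had one probe set with a ratio of 1.75, and JAZ7, a repressor of jasmonate signalling, one with 1.74. The CAT-A probe set read 22539 and 19479 on the overexpressor arrays, against 13031 and 12865 on the control arrays. JAZ7 read 10678 and 10527 on the overexpressor arrays, against 17472 and 18329 on the control arrays. CAT-A was the higher and JAZ7 the lower on the overexpressor arrays, and these probe sets show the differences that the limit removed.

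Redox and detoxification enzymes gave 7 genes with ratios between 1.06 and 1.14. APX1, an ascorbate peroxidase that removes hydrogen peroxide, read 11336 and 11228 on the overexpressor arrays, against 10286 and 10798 on the control arrays. SodCc1, a cytosolic copper/zinc superoxide dismutase, read 10889 and 10835 on the overexpressor arrays, against 10922 and 11567 on the control arrays, and the plastid enzyme sodCp read 10440 and 10671 on the overexpressor arrays, against 9441 and 9528 on the control arrays. GSTF2, a glutathione transferase, had the smallest ratio of the group, 1.06, with 15610 and 14912 on the overexpressor arrays, against 14813 and 15754 on the control arrays. GLYI-11, a glyoxalase I, read 15894 and 13988 on the overexpressor arrays, against 15936 and 15930 on the control arrays. FALDH, a glutathione-dependent formaldehyde dehydrogenase, read 9718 and 9858 on the overexpressor arrays, against 8679 and 8798 on the control arrays, and the glutaredoxin GRXC6 read 10738 and 9830 on the overexpressor arrays, against 9991 and 9915 on the control arrays. APX1, sodCp and FALDH were higher on both overexpressor arrays, SodCc1 and GLYI-11 lower, and the other 2 overlapped.

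Close relatives of some of these genes were as bright and fell outside the limit. These pairs were chosen after their values were seen. A second cytosolic superoxide dismutase, SODCC.2, had a ratio of 1.59, with 13741 and 11587 on the overexpressor arrays, against 8636 and 9035 on the control arrays. For APX2, the partner of APX1, the ratios were 1.205 and 1.21 in its pair of probe sets, just outside the limit. The same held for ADF-2, a relative of ADF4, with a ratio of 1.22, and for HSP81-2, a relative of HSP81-3, with 1.24. SODCC.2 was the farthest of these from its bright stable relative.

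Chaperones gave 4 genes. HSP81-3, of the heat shock protein 90 class, read 21787 and 19642 on the overexpressor arrays, against 20637 and 21051 on the control arrays, and DJA6, a DnaJ-type co-chaperone, read 17123 and 16186 on the overexpressor arrays, against 15822 and 18039 on the control arrays. PDIL1-1, a protein disulfide isomerase of the endoplasmic reticulum, read 14902 and 14219 on the overexpressor arrays, against 13266 and 13781 on the control arrays. The gene named chaperonin in the tables read 12301 and 12222 on the overexpressor arrays, against 10262 and 11360 on the control arrays, at a ratio of 1.199 close to the limit. The last 2 of these were higher on both overexpressor arrays.

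Metabolic enzymes gave 12 genes and 14 probe sets, with ratios between 1.05 and 1.2. Those of glycolysis are TPI, FBA1, GAPC1 and Eno1. GAPC1, the cytosolic glyceraldehyde-3-phosphate dehydrogenase, read 22201 and 19727 on the overexpressor arrays, against 22089 and 23063 on the control arrays. TPI, triose phosphate isomerase, read 13234 and 11942 on the overexpressor arrays, against 13430 and 13467 on the control arrays, and Eno1, an enolase, read 11302 and 10184 on the overexpressor arrays, against 10046 and 10525 on the control arrays. FBA1, a fructose-bisphosphate aldolase, had the lowest ratio of group means of the metabolic genes, 0.869, with 8371 and 8397 on the overexpressor arrays, against 9703 and 9595 on the control arrays. The sucrose synthases SUS1 and SUS2 split sucrose in sink tissues. SUS1 read 12324 and 13469 on the overexpressor arrays, against 12908 and 13018 on the control arrays, with overlapping groups, and SUS2 read 12196 and 11918 on the overexpressor arrays, against 11326 and 11246 on the control arrays, with the overexpressor higher. PAL, phenylalanine ammonia-lyase at the entry to phenylpropanoids, had 3 probe sets with ratios of 1.05, 1.1 and 1.11. The least variable of them read 16086 and 15906 on the overexpressor arrays, against 15255 and 15775 on the control arrays. SAM1, S-adenosylmethionine synthetase, read 15034 and 13236 on the overexpressor arrays, against 15152 and 15872 on the control arrays, and SAMDC, S-adenosylmethionine decarboxylase of polyamine synthesis, read 12924 and 12132 on the overexpressor arrays, against 12206 and 13114 on the control arrays. NADP-ME2 (NADP-malic enzyme) and GDCSH (the H protein of glycine decarboxylase, which works in photorespiration) had ratios of 1.11 and 1.16, both with the overexpressor higher. PLD1, a phospholipase D, had a ratio of 1.09 with overlapping groups. Over the 14 probe sets 5 were separated with the overexpressor higher, 3 with it lower, and 6 overlapped (39.7% higher and 28.3% lower over all tested).

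Regulatory genes were present at the same signal levels, 9 genes with ratios between 1.09 and 1.18. This group was formed after the values were seen. Hox16, HOS58 and HOS59 are homeobox transcription factors. Hox16 read 18618 and 16468 on the overexpressor arrays, against 19391 and 19219 on the control arrays, HOS58 read 9405 and 9314 on the overexpressor arrays, against 9857 and 10261 on the control arrays, and HOS59 had overlapping groups. IAA3, IAA13 and IAA17 are Aux/IAA proteins, repressors of the auxin response. IAA3 read 13931 and 13602 on the overexpressor arrays, against 14835 and 14775 on the control arrays, IAA13 read 10344 and 10625 on the overexpressor arrays, against 11402 and 11853 on the control arrays, and IAA17 overlapped between the groups with 19005 and 17330 on the overexpressor arrays, against 17612 and 18380 on the control arrays. D14, the strigolactone receptor, read 8556 and 8589 on the overexpressor arrays, against 9545 and 9672 on the control arrays. EIL1, a transcription factor of the ethylene response, read 13888 and 12653 on the overexpressor arrays, against 13247 and 13256 on the control arrays. GI, a component of the circadian clock and of flowering control, read 10421 and 10282 on the overexpressor arrays, against 9382 and 9275 on the control arrays. GI was the one member of the 9 that was higher on both overexpressor arrays, while 5 were lower on both (Hox16, HOS58, IAA3, IAA13 and D14), with ratios of group means between 0.892 and 0.930. Over all tested probe sets 39.7% were separated in the direction of GI and 28.3% in that of these 5.

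Of membrane proteins, the plasma membrane aquaporin PIP1-2 read 17112 and 15554 on the overexpressor arrays, against 15955 and 15643 on the control arrays. TIP4-1, an aquaporin of the tonoplast, read 15149 and 15106 on the overexpressor arrays, against 15345 and 17968 on the control arrays, which put control replicate 2 above the other 3 arrays. VATP-P1, the proteolipid subunit of the vacuolar proton pump, read 9788 and 8612 on the overexpressor arrays, against 8756 and 9436 on the control arrays, with overlapping groups. MT2C is a metallothionein, a small cysteine-rich protein that binds metal ions. Its bright stable probe set read 27254 and 26095 on the overexpressor arrays, against 27315 and 30666 on the control arrays, the highest mean signal among the 268.

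The remaining named genes cover several roles, and 12 of their 14 probe sets had overlapping groups, beside 50.0% of the 268. TCTP, the translationally controlled tumour protein homolog, had a pair of probe sets that read 24429 and 21578 on the overexpressor arrays, against 22632 and 23200 on the control arrays in one and 24065 and 20538 on the overexpressor arrays, against 21746 and 23468 on the control arrays in the other. LTP2-B, a lipid transfer protein, had one of the smallest ratios among named genes, 1.04, with 9572 and 9273 on the overexpressor arrays, against 9680 and 9376 on the control arrays. BIPP2C1, a protein phosphatase 2C, read 20912 and 20455 on the overexpressor arrays, against 21862 and 21978 on the control arrays. FOR1, a leucine-rich repeat protein, read 9255 and 9107 on the overexpressor arrays, against 9447 and 9773 on the control arrays, and with BIPP2C1 it was lower on both overexpressor arrays. AIP1, a DEAD-box RNA helicase, had a pair of probe sets with ratios of 1.16 and 1.07. The low-temperature-induced membrane protein LTI6B, the peroxisome protein PEX11-1, R40C1, the nuclear transport factor NTF2, ARF, a7 and cbp31 had ratios between 1.13 and 1.19.

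Many genes on this array have several probe sets, which allows a look at values the rule did not choose. Of the 238 genes 214 had 1 bright stable probe set, 18 had 2 and 6 had 3. For 159 genes every single-gene probe set was a bright stable one. The other 79 genes had 122 further probe sets. Of these, 16 were bright and exceeded the ratio limit, so they are described with no test. They include ACT1, with 9600 and 9015 on the overexpressor arrays, against 9597 and 11409 on the control arrays, and CAB2R, with 25944 and 24694 on the overexpressor arrays, against 28773 and 31535 on the control arrays, and all 4 further bright probe sets of MT2C, with ratios between 1.23 and 1.38. The further bright probe set of HSP81-3 read 14217 and 13731 on the overexpressor arrays, against 10018 and 10498 on the control arrays.

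Below the floor on at least 1 array were 106 further probe sets of 71 genes, of which 78 passed the filter on low signal and were in the fit. For 8 of the 78 the arrays lay on both sides of 8000, so that the difference itself helped to put them below the floor, and they are described with no test. In all 8 both overexpressor arrays were above both control arrays, as for 39.7% of all tested probe sets. Because the difference helped to place them here, nothing is read from this count. The other 70, of 51 genes, read below 8000 on every array. This split was made after the values were seen. With limma and the adjustment over all 28629 probe sets, 10 of the 70 lay higher on the overexpressor arrays, 9 lay lower and 51 did not pass. That is 27.1% called, beside 28.5% of all tested probe sets (15.4% higher and 13.1% lower). Their median log2 difference was 0.18, beside 0.08 for all tested. The split was 36 higher and 6 lower with spike scaling, and 6 higher and 10 lower with median centring. Without control replicate 1 the count of calls was 7, and without control replicate 2 it was 8. The ratio of highest to lowest array was within 1.2 for 13 of the 70 (18.6%), beside 17.0% of the 17794 other tested single-gene probe sets below 8000 on every array, and its median was 1.41 beside 1.46. The difference between these shares was not tested.

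Some of the 8 belong to named genes. The _a probe set of HSP81-3 read 10427 and 11021 on the overexpressor arrays, against 6477 and 6045 on the control arrays, a log2 difference of 0.78, while the bright stable probe set of this gene, an _s one, overlapped between the groups. RPS21 read 7625 and 9093 on the overexpressor arrays, against 5436 and 6264 on the control arrays in its second probe set (log2 0.51), and a further one of PAL read 7650 and 8456 on the overexpressor arrays, against 5817 and 5533 on the control arrays (0.50). The _x probe set of QM1 read 8839 and 9630 on the overexpressor arrays, against 7379 and 7366 on the control arrays (0.32). In all 4 both control arrays were under 8000 and at least 1 overexpressor array was over it.

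Of the 70, a dimmer probe set of HSP81-3 read 211 and 232 on the overexpressor arrays, against 112 and 138 on the control arrays, a log2 difference of 0.82 (limma, adjusted p = 0.0364). It was the single one of a named gene that rose. Lower on the overexpressor arrays were those of 5 named genes. QM1 read 63.4 and 53.6 on the overexpressor arrays, against 218 and 129.9 on the control arrays (-1.47, limma adjusted p = 0.0206), low signals on all arrays. Hox16 read 3534 and 3636 on the overexpressor arrays, against 7621 and 5234 on the control arrays (-0.82, limma adjusted p = 0.0152). That Hox16 probe set ends in _x, and its 2 control arrays differed by a ratio of 1.46. LTI6B read 985 and 803 on the overexpressor arrays, against 1382 and 1359 on the control arrays (-0.62, adjusted p = 0.0151). BIPP2C1 read 668 and 728 on the overexpressor arrays, against 1027 and 1978 on the control arrays (-1.03, adjusted p = 0.0387), with the control arrays themselves far apart. SAMDC read 251 and 187 on the overexpressor arrays, against 380.4 and 448 on the control arrays (-0.92, adjusted p = 0.0195). Each of these 6 lost its call when 1 control array was left out: without control replicate 1 those of HSP81-3, QM1, Hox16, LTI6B and SAMDC (adjusted p between 0.0533 and 0.235), and without control replicate 2 those of HSP81-3, LTI6B, BIPP2C1 and SAMDC (between 0.0941 and 0.145). With spike scaling LTI6B, BIPP2C1 and SAMDC did not pass (0.102, 0.0733 and 0.0516), and HSP81-3 did not with median centring (0.0584) or without overexpressor replicate 2 (0.0639). Further probe sets of GOS2, EIL1, Eno1, eIF-4A-1, LTP2-B, RPS3A, TCTP, TPI, TUB3, AIP1, a7 and the gene named chaperonin, and another one of PAL, were below 8000 on every array and did not pass on the deposited scale with all arrays.

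**Figure D4:**
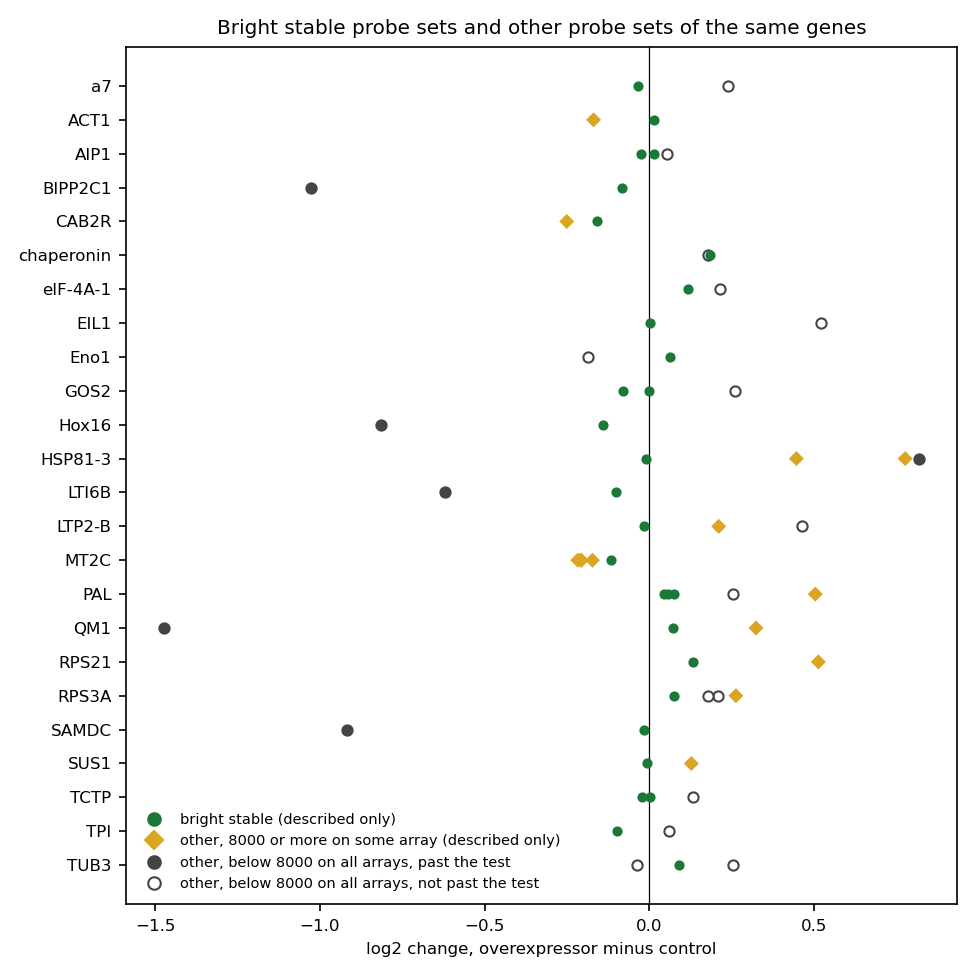
The log2 difference of overexpressor minus control (x axis) for 24 named genes that have a bright stable probe set and at least 1 further probe set in the fit. Green points are bright stable probe sets and yellow diamonds further probe sets at 8000 or more on at least 1 array, both shown as a description. Grey filled points are further probe sets below 8000 on every array and past an adjusted p of 0.05 (limma), and open points those that did not pass: the green points stay between -0.16 (CAB2R) and 0.18 (chaperonin), and the others reach -1.47 (QM1) and 0.82 (HSP81-3).

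By the array's naming convention a probe set ID ending in _a reads several transcripts of a gene, one ending in _s transcripts of several genes, and one ending in _x shares some probes with other sequences. Among the 268 such endings were found on 116 (43.3%: 48 _a, 31 _s and 37 _x), and on 124 of the 278 other bright probe sets (44.6%). Of the families named here, probe sets of ACT1, ACT7, TID1, TUB3, EF-1-alpha, QM1, RPS3A and RPL9 carry _s or _x. So do bright stable probe sets of GAPC1, CAB2R, RCABP69, GOS2, PAL, ADF4, IAA17, LTP2-B and AIP1. The chaperone whose _s probe set is given above belongs here too, and the list is not complete. Signals of _s and _x probe sets can hold signal of near-identical relatives, and for all of them a gene name stands for the probe set. Without these endings 152 of the 268 remain.

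Common reference genes of rice were listed by name to see how many are in the set. The list matched 29 genes with a single-gene probe set, taken at the brightest probe set of each, and 11 of them are genes of bright stable probe sets: GAPC1, EF-1-alpha, TID1, ACT7, RPS27AA, eIF-4A-1, UBQ1, TUB3, ACT1, TUBA1 and UBQ6. Of the other 18, TUB5 and TUB1 were left out by the ratio limit alone. The other 16 did not reach the floor on all arrays, and most of them exceeded the ratio limit as well. Of the 16 only ACT3, eIF-4A-III, eIF-4A-3, UBQ2 and UBQ5 were within that limit. All 29 are named, beyond the brightest 10 after their values were seen. Of the 18, the fit called 7 as higher and 2 as lower on the overexpressor arrays, and 9 were not called. Over all tested 28.5% were called, but the rule had already taken the stable genes out of this list. The calls also include TUB4, TUB5, TUB6, GAPC3 and UBQ4, which are described with no test, so nothing is read from the counts over the 18. The split was 13 higher and 0 lower with spike scaling, and 5 higher and 4 lower with median centring. These counts are not independent of the rule: it left out the stable genes, and in 6 of the 16 (TUB4, TUB6, ACT2, ACT3, GAPC3 and UBQ4) the arrays lay on both sides of 8000, so that the difference itself helped to put them below the floor. These 6, TUB5 and TUB1 are described with no test. The other 10 read below 8000 on every array, a split made after the values were seen. Of the 10, 4 were higher on the overexpressor arrays, 0 were lower and 6 did not pass, with a median log2 difference of 0.28 beside 0.08 over all tested.

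Of the 4 that were higher, 3 are beta tubulins. TUB7 read 3865 and 4390 on the overexpressor arrays, against 2799 and 2799 on the control arrays (log2 0.56 ± 0.09, SE, limma adjusted p = 0.00746). TUB8 read 3087 and 2951 on the overexpressor arrays, against 2138 and 2147 on the control arrays (0.49 ± 0.08, adjusted p = 0.00779). TUB2 read 3501 and 5073 on the overexpressor arrays, against 2419 and 2464 on the control arrays (0.79 ± 0.17, adjusted p = 0.0172), with the overexpressor arrays apart from each other. Each of these had both overexpressor arrays above both control arrays. None of the 3 passed without control replicate 1 or without control replicate 2 (adjusted p between 0.0547 and 0.0887). The 4 that are only described were on the same side: TUB4 read 10593 and 10373 on the overexpressor arrays, against 7872 and 7744 on the control arrays (log2 0.42), TUB6 read 7064 and 8048 on the overexpressor arrays, against 4827 and 5128 on the control arrays (0.60), and TUB5 and TUB1 differed by 0.31 and 0.16. The difference was above 0 for all 7 beta tubulins outside the set with all arrays and under each of 9 other settings of scaling, array choice and block. These settings reuse the same 4 arrays. The spread of TUB4, TUB6, TUB5 and TUB1 across the arrays helped to keep them out of the set, so the count over all 7 is described with no test. Over all tested probe sets the median log2 difference was 0.08.

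The fourth, UBC5B, is a ubiquitin-conjugating enzyme (OsUBC5b). It read 4800 and 4429 on the overexpressor arrays, against 3274 and 3881 on the control arrays (log2 0.37 ± 0.11, SE, limma adjusted p = 0.0444; 0.0514 with the replicate number as a block), and did not pass without control replicate 1 (0.335), without control replicate 2 (0.0739) or with median centring (0.0967). The 6 that did not pass are eIF-4A-III, eIF-4A-3, UBQ2, UBQ5, OsUBC5a and GAPC2, and GAPC2 read at most 134.7 on any array. Some passed under other settings: with spike scaling eIF-4A-III, eIF-4A-3, UBQ2 and UBQ5 were higher (limma adjusted p between 0.00601 and 0.0239), and OsUBC5a was lower with median centring (0.0238) and without overexpressor replicate 1 (0.00972). Likewise eIF-4A-III passed without overexpressor replicate 1 (0.0281), and GAPC2 without control replicate 1 (0.0122). Of those across the floor, GAPC3, a cytosolic glyceraldehyde-3-phosphate dehydrogenase, read 6447 and 6463 on the overexpressor arrays, against 8338 and 8537 on the control arrays (log2 -0.39; -0.07 with spike scaling). UBQ4, listed as NEDD8 in the tables, read 6575 and 5691 on the overexpressor arrays, against 7632 and 8312 on the control arrays (-0.38; -0.07 with spike scaling). ACT2 read 6090 and 7717 on the overexpressor arrays, against 8785 and 8795 on the control arrays (-0.36), and ACT3 read 7601 and 8531 on the overexpressor arrays, against 7233 and 7676 on the control arrays. Tubulins and actins stood on both sides of the rule: 3 of 10 tubulins and 2 of 4 actins met it, and 7 beta tubulins, ACT2 and ACT3 did not.

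**Figure D5:**
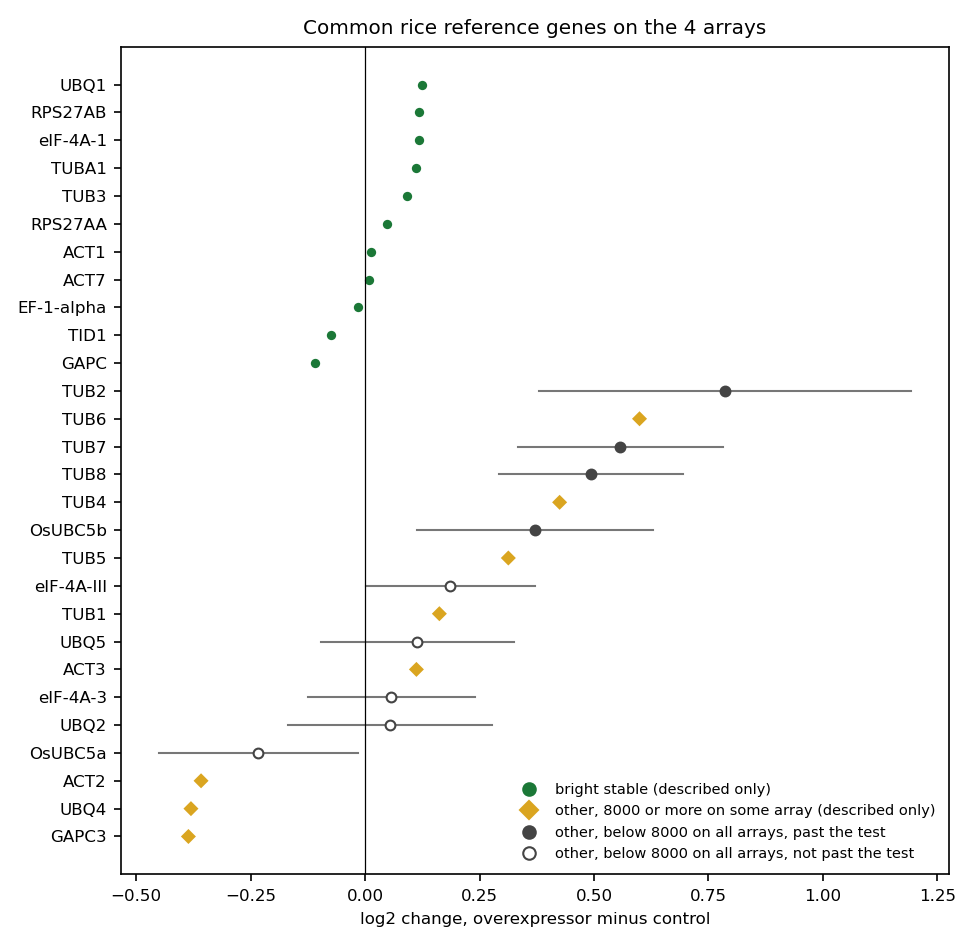
The log2 difference of overexpressor minus control (x axis) for 28 common reference genes, each at its brightest probe set. Green points are the 11 genes of bright stable probe sets, shown as a description (RPS27AB is UBQ6 and GAPC is GAPC1), yellow diamonds are other genes at 8000 or more on at least 1 array, also a description, filled grey points are genes below 8000 on every array and past an adjusted p of 0.05 (limma), open points did not pass, and lines are 95% confidence intervals of these last. GAPC2, close to background, is not drawn: the beta tubulins other than TUB1 and TUB3 lie between 0.31 and 0.79, and UBQ4 and GAPC3 near -0.38.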

How the data were processed

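The titles gave the groups of the 4 samples. The deposited table lists linear intensities of 57381 probe sets on every array. The sources used here do not give the software. Trimmed means were equal (2% off each end, 500.1 per array), so the authors deposited intensities already scaled to each other, and they were used unchanged. This hides any general shift of a group. Genes were taken from the platform annotation: 22436 probe sets have 1 gene, 95 have several and 34850 are not listed in it. All 17905 single genes were found in the RefSeq table of assembly ASM3414082v1, which was used for names only.

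The members and the gene lists were chosen with earlier results of these data known. Ratios were computed on linear intensities. For the tests, log2(intensity + 3.6) was taken, where 3.6 is the 10th percentile of all values, and probe sets with a mean above the median were kept (28629, without 123 control probe sets). Groups were compared by limma (version 3.58.1, R 4.3.3; lmFit, then eBayes with trend=TRUE), two-sided, with Benjamini-Hochberg adjustment at 0.05. On simulated data with independent normal noise (28629 probe sets, 200 changed, 10 simulations) 62.9% of the changed probe sets were recovered and 12.3% of calls were false. That false share is above the 0.05 aimed for. In the data 8170 probe sets passed, far more than were changed in the simulation, and shifts between arrays that move with signal were not simulated. These shares therefore cannot be carried over to the calls reported here.

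Named are the members with a symbol, the 5 brightest and the 5 least variable members without one, the 3 genes on each side of each limit, the 3 genes with a symbol and the highest ratios among other bright probe sets, and the 10 brightest reference genes. Genes named beyond this rule were chosen after their values were seen. Same-numbered replicates were not paired: their deviations from the group means correlated at -0.02. Alternatives changed scaling, pseudocount, filter, spread model, limits, arrays, block and probe set kinds. Sequences and promoter motifs were not analysed here.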

Additional observations from a re-analysis of the deposited data

How the results depend on the processing

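The set depends on its limits and on the scaling. Its 268 probe sets became 79 and 404 at ratio limits of 1.1 and 1.3, 460 at a floor of 5000, and 152 without the _a, _s and _x probe sets. Under spike scaling 116 probe sets met the rule, 17 of them among the 268, and the median ratio of the 268 was 1.35. Of the 268, 48 were lost with quantile normalization, 48 with cyclic loess and 73 with median centring. The share of bright probe sets within the limit, 49.1%, was 54.7% with quantile normalization, 54.5% with cyclic loess, 22.7% with spike scaling, 14.5% and 74.0% at limits of 1.1 and 1.3, and 39.7% and 54.2% at floors of 5000 and 10000. Leaving out 1 array, the share lay between 55.9% and 66.0% and the median ratio between 1.08 and 1.12, as fewer arrays narrow a range by construction. The 8170 calls were 13648 with spike scaling, 5041 without the trend in the spread, and between 3019 and 11102 with 1 array left out, the lowest without control replicate 1 (3240 without control replicate 2), when the lone control array is assumed to vary like the other group. Of these calls 54.0% were higher on the overexpressor arrays, 38.7% with median centring and 84.5% with spike scaling, where the median of all tested probe sets was 0.39. The replicate block gave 7931 calls and 9 reference genes (6 higher, 3 lower). The 9 called on the deposited scale with all arrays include TUB4, TUB5, TUB6, GAPC3 and UBQ4, which are described above with no test. Counts of reference genes in this section are therefore not independent of the rule. The 9 reference genes called were 2 without the trend, and between 1 and 12 with 1 array left out (1 without either control array). The 19 calls among further probe sets below 8000 on every array, a count added after seeing the data, were 42 with spike scaling, 11 without the filter, 11 without the trend, 12 without the _a, _s and _x probe sets, 20 with the replicate block, and between 7 and 27 with 1 array left out. Changes that did not pass the test turned sign for OsUBC5a (0.0817 with spike scaling), UBQ2 (-0.0539 with median centring, and between -0.0490 and 0.158 with 1 array left out, the lowest without overexpressor replicate 2) and eIF-4A-3 (-0.0512 with median centring). Where no other cause is given above, the cause was not tested. Dim probe sets limit the comparison within genes: 28 of 106 further probe sets were below the filter.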
